A study of Mus musculus with 8 samples.

Results

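Genes of mouse chromosome 8 were followed by position on 3 pluripotent cell arrays, through 1263 array probes. They were chosen from the 1940 non-control probes with a coordinate on chromosome 8, among 41174 non-control probes of the array in all. A member had to be well above background on the array of embryonic stem (ES) cells and on that of the oxysterol-derived cells, and 65.1% of the chromosome's probes met this rule. On the other autosomes the same rule kept 22435 of 37028 probes, or 60.6%. The members carry 902 gene names, and 268 of these names have several member probes, so probes of a gene are not independent of each other. They span positions 3039768 to 127822367 of mouse build mm7. Chromosome 8 was chosen for its median shift between these same arrays. All values below are therefore descriptions, without a test.

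Mouse chromosome 8 carries genes of many unrelated functions, together with tandem families such as the defensins, the metallothioneins and the carboxylesterases. In cultured mouse ES cells a gained copy of chromosome 8 is one of the best known changes of the karyotype, and cells with it can overgrow a culture. A change in the copy number of a chromosome usually moves the RNA of many of its genes a little, in 1 direction. No DNA was measured in this study, so the copy number of chromosome 8 in these cells was not tested.

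The series compared mouse somatic and pluripotent cells on 8 arrays, with 1 array per group. Of these, 4 were Agilent arrays read in 1 colour, which report the fluorescence of a 60-base probe, and they are described here. The ES cells came from blastocysts of 129/Ola mice. The mouse embryonic fibroblasts (MEF) carry no treatment in the labels. PM2i-iPSC were induced pluripotent stem cells made from MEF with combinations containing purmorphamine, an agonist of the Hedgehog pathway protein Smoothened, followed by 2i/LIF. OM2i-iPSC were made in the same way with an oxysterol, a class of oxidised sterols of which some also activate Smoothened. 2i/LIF stands for a pair of kinase inhibitors given with leukaemia inhibitory factor, a medium that maintains naive mouse pluripotent cells. The strain of the MEF and of both iPSC preparations, the number of animals pooled, the number of colonies or passages and the doses are not stated in the labels. The strain of the iPSC may therefore differ from that of the ES cells, and strain, origin and treatment cannot be told apart.

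Between 63.4% and 66.9% of the spots were well above background on the 3 pluripotent arrays. All 6 pluripotency markers were above background on each of them, with a median log2 level of 3.95 on ES, 3.65 on PM2i-iPSC, 3.18 on OM2i-iPSC and -5.11 on MEF. The median level of 6 fibroblast markers was -2.15, -2.51 and -2.99 on those 3 arrays and 4.68 on MEF. Levels throughout are on the log2 scale, relative to the 75th percentile of all probes on that array. The SD between repeated spots of a probe was 0.20 to 0.22 on the 3 pluripotent arrays, which gives 0.29 for a difference of OM2i-iPSC and ES and 0.30 for PM2i-iPSC and ES. This covers the array only, and with 1 array per group the spread between cultures is unknown. ES and PM2i-iPSC were on slide 1 and OM2i-iPSC was on slide 2, so the slide and the OM2i-iPSC preparation cannot be told apart. MEF was on a further slide and read with older software.

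Some probes from the windows of the chromosome that lay highest and lowest are shown by the first 30 of their 60 bases, 5′ to 3′. Beside them stand a probe of low and one of high G and C content. The sequences and coordinates are those of the array file, in build mm7, and exon and UTR positions of the probes were not analysed here. Ccl25 (chr8:4325884-4325943, plus strand) and Cers4 (chr8:4487720-4487779, plus strand) lie in the first window. Of the 6 brightest genes of that window, only Ccl25 and Cers4 were above the median of the other autosomes on OM2i-iPSC minus ES. The median of those 6 genes was -0.44, so these 2 probes do not stand for the window. Zfp42 (chr8:42080786-42080857, minus strand) lies in the fifth and Nip7 (chr8:105658988-105659047, plus strand) in the eleventh. Znrf1 (chr8:110223063-110223122, plus strand) and Mt1 (chr8:92769155-92769214, plus strand) have 28.3% and 68.3% G and C over the whole probe. Tmem59l (chr8:68939069-68939128, minus strand) and Ank1 (chr8:21934474-21934533, plus strand) have the widest differences between OM2i-iPSC and ES among named genes well above background and unsaturated on all 3 pluripotent arrays.
Ccl25: gaggaacgagaggatagtgagtgtgtgaga
Cers4: ccaaggctgtagcttgggggctgtggggag
Zfp42: caacaggaaagtgaatggtgaaagcataat
Nip7: gatggtttctaagttacttcactgaggaca
Znrf1: cgttgtgggtctgtctttaaaaagtgttta
Mt1: cctgctgtcccgtgggctgctccaaatgtg
Tmem59l: ccctctgctaaggttccttccctttgtctc
Ank1: catgttcaatagaggaagaggttttctaaa

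Relative to the other autosomes, the RNA of chromosome 8 as a whole stood a little higher on the OM2i-iPSC array than on the ES array. The median log2 difference over the 1263 probes was 0.17, with quartiles of -0.36 and 0.87. Over the 22435 probes of the other autosomes it was -0.04, with quartiles of -0.62 and 0.65. Chromosome 8 thus lay 0.22 above the other autosomes, which is 1.16-fold. With no filter on detection the distance was 0.066, with the next chromosome at 0.044. Chromosome 8 had the highest median of the 19 autosomes in both sets of probes. The other 18 had medians from -0.13 to 0.02 with an SD of 0.041, and the next in order, chromosome 12, was 0.16 below chromosome 8. In RNA from bulk cultures, more cells that express a gene and more RNA per cell cannot be told apart. Among markers of other cell types, the trophoblast and caudal regulator Cdx2 was higher on this array too, at -3.05 on ES, -3.25 on PM2i-iPSC and 0.41 on OM2i-iPSC. The trophoblast markers Gata3 and Krt7 read -4.20 and 2.46 on ES and -4.06 and 2.36 on OM2i-iPSC, and the part of such cells in the shift was not tested.

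PM2i-iPSC did not show this shift against the same ES array. Its median difference from ES was -0.11 on chromosome 8 and -0.09 on the other autosomes, which places chromosome 8 -0.03 from them and 16th from the highest of the 19. The other 18 autosomes lay between -0.16 and 0.01. Both comparisons share the ES array, so their values are not independent. Without ES, the median of OM2i-iPSC minus PM2i-iPSC was 0.27 on chromosome 8 and 0.06 on the other autosomes. Chromosome 8 was again the highest, 0.21 above the rest and 0.14 above the next chromosome.

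**Figure D1:**
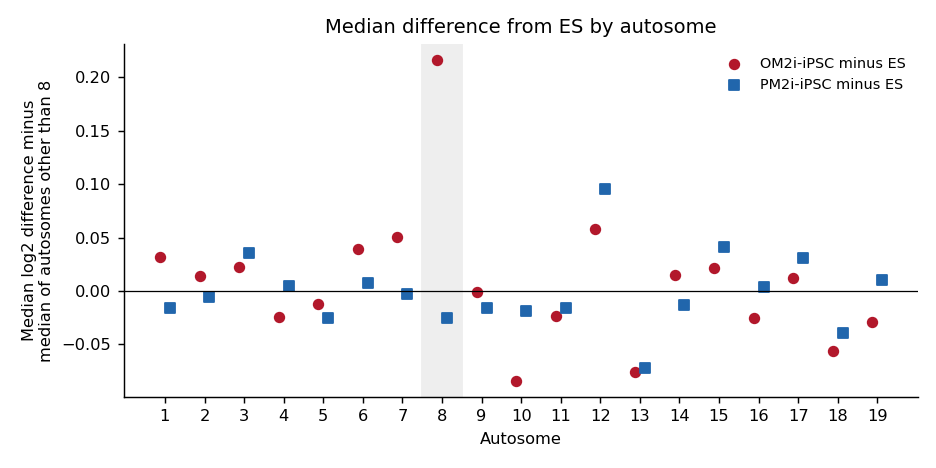
Median log2 difference from the ES array for each of the 19 autosomes (x axis), minus the median over all autosomes other than 8 (y axis, log2). Circles are OM2i-iPSC minus ES and squares PM2i-iPSC minus ES, each from 1 array per group, and the grey band marks chromosome 8, whose circle stands at 0.22 and whose square stands at -0.03.

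Counting probes gives the size of the shift in another form. On chromosome 8, 266 of 1263 probes (21.1%) were at least 2-fold higher on OM2i-iPSC than on ES, where the share over all autosomal probes tested was 17.0%. At least 2-fold lower were 114 probes (9.03%), against 14.2% of all. The share above the median of the other autosomes was 59.7%, or 754 probes, against 50.5%. About 4 in 10 of the chromosome's probes therefore lay on the lower side, and single probes ranged from -4.42 to 4.76. Of the chromosome's calls at 2-fold, 70% were on the higher side, beside 54.5% over all autosomes. With each array scaled by its median, every difference of OM2i-iPSC from ES is 0.16 lower on the log2 scale (a move of -0.16), and these splits are 59.6% and 43.0%. For PM2i-iPSC that move is -0.06. The distance of chromosome 8 from the other autosomes is the same under both scalings. Below, the higher level of Ctcf on both iPSC arrays and of Znrf1 and Wwc2 on OM2i-iPSC, and the medians of the transcription factors and the defensins there, turn below 0 with that scaling.

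For PM2i-iPSC against ES, 144 probes (11.4%) were at least 2-fold higher, beside 10.6% of all, and 196 (15.5%) were lower, beside 13.9%. Above the median of the other autosomes were 617 (48.9%), beside 49.9%. These shares stand within 2 percentage points of the background. For OM2i-iPSC against PM2i-iPSC, 295 probes (23.4%) were higher, beside 17.8%, and 82 (6.49%) were lower, beside 11.4%. A share of 61.0%, or 770 probes, was above the median of the other autosomes, beside 50.6%. Since the members were chosen on ES and OM2i-iPSC, 93 of them were not well above background on PM2i-iPSC and entered at their measured value.

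The chromosome was then cut into 13 windows of 10 Mb, each with at least 20 member probes. On OM2i-iPSC minus ES, 12 of the 13 window medians were above the median of the other autosomes, where 53.1% of all 241 autosomal windows were. The 8 windows from 50 Mb to the end were all above it in an unbroken run. Among the 228 windows of the other autosomes the upper quartile of the medians themselves was 0.06 and their 95th percentile 0.24. The medians of the chromosome 8 windows ran from -0.19 to 0.58, and 11 exceeded that quartile and 3 exceeded that percentile. The shift was thus spread along the chromosome and not held by a single block.

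Its height was uneven, as shown by the distance of each window median from the -0.04 of the other autosomes. The first window, from 0 to 10 Mb with 67 probes, stood highest at 0.62 above the other autosomes, and the eleventh, from 100 to 110 Mb with 198 probes, stood at 0.40. Windows 2 and 3, from 10 to 30 Mb, were at 0.03 and 0.10, close to the rest of the genome. The fifth, from 40 to 50 Mb with 55 probes, was the exception at -0.15. The 4 windows between 60 and 100 Mb were at 0.19, 0.18, 0.25 and 0.26, and the last, from 120 to 130 Mb, was at 0.27. Windows 4, 6 and 12 were at 0.29, 0.26 and 0.19.

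The spread between windows was within the range of the other autosomes, but its size depends on the probes and windows taken. The SD of the 13 window medians was 0.182 for OM2i-iPSC minus ES, and on the other autosomes it ran from 0.084 to 0.252 with a median of 0.160. It was 0.065 with no filter on detection, beside 0.050 to 0.169, and 0.088 with windows of 20 Mb, beside 0.052 to 0.244. Leaving out any 1 window kept the shift of the whole chromosome between 0.21 and 0.25. In 3 equal groups of 421 probes in coordinate order, the shift was 0.16 in the group nearest to position 0, 0.25 in the middle and 0.25 in the group nearest to the end. With each gene counted once, the first window was at 0.41, the fifth at -0.14 and the eleventh at 0.35, so the height of the first window rests in part on genes with several probes.

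On PM2i-iPSC minus ES, 4 of the 13 windows were above the median of the other autosomes, where 47.7% of all windows were. Their distances from it ran from -0.11 in the eighth window to 0.16 in the last. The first window was at 0.02, the fifth at -0.06 and the eleventh at -0.03, so the windows that stood out on OM2i-iPSC did not do so here. The SD of the window medians was 0.075, beside 0.052 to 0.157 on the other autosomes. For OM2i-iPSC minus PM2i-iPSC, 11 of 13 windows were above, beside 52.7% of all, and the 2 below were the second at -0.04 and the fifth at -0.09.

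**Figure D2:**
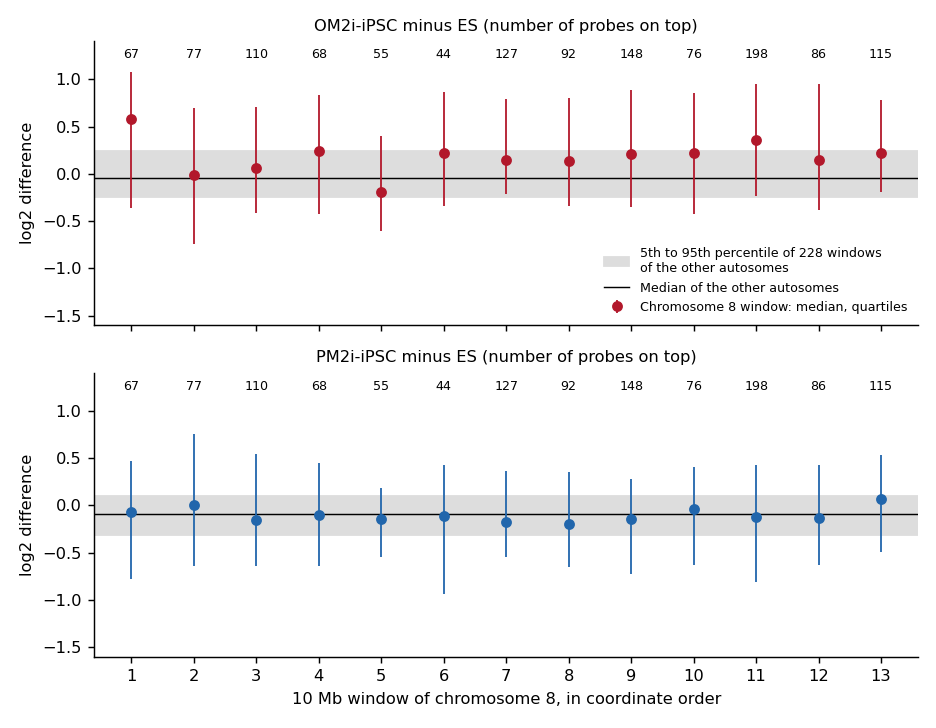
Median log2 difference (points, y axis) and quartiles (vertical bars) of the probes in each 10 Mb window of chromosome 8, numbered in coordinate order (x axis), for OM2i-iPSC minus ES (top) and PM2i-iPSC minus ES (bottom), with the number of probes above each. The line is the median of the other autosomes and the grey band runs from the 5th to the 95th percentile of their 228 windows. On top 12 of 13 points lie above the line and at the bottom 4 of 13 do.

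On OM2i-iPSC minus ES most of the distribution of chromosome 8 was displaced, and its upper tail the least. The shift against the other autosomes was 0.33 at the 5th percentile of the differences, 0.26 at the 25th, 0.22 at the 50th and 0.21 at the 75th. It narrowed to 0.14 at the 90th and 0.05 at the 95th percentile. The probes with the widest increases over ES were thus about as far up on the other autosomes as on chromosome 8, while the lower tail was shorter on chromosome 8. On OM2i-iPSC minus PM2i-iPSC the upper tail did not narrow. The distance there was 0.21 at the 50th, 0.20 at the 90th and 0.24 at the 95th percentile. For PM2i-iPSC minus ES the distances ran from -0.08 to 0.05.

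**Figure D3:**
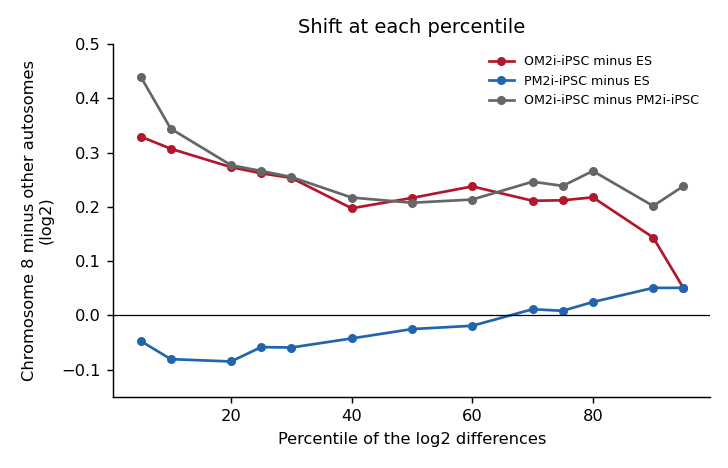
Distance between chromosome 8 and the other autosomes (y axis, log2) at each percentile of the probes' log2 differences (x axis), for the 3 comparisons among ES, PM2i-iPSC and OM2i-iPSC. Both lines with OM2i-iPSC stay above 0, and the line of PM2i-iPSC minus ES stays between -0.08 and 0.05.

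Probes of the same gene were then set beside each other. Of the 268 chromosome 8 genes with several probes, the 2 brightest were both above the median of the other autosomes in 37.3% on OM2i-iPSC minus ES, beside 24.7% of 4779 genes of the other autosomes. Both were below it in 21.3%, beside 33.9%. The pair was split in 41.4%, beside 41.3%. Over 4 in 10 genes therefore had probes that disagreed in side on either part of the genome, and a single probe gives little about its gene at this size of difference. On PM2i-iPSC minus ES both probes were above in 23.9%, beside 26.8%.

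Detection on the array leaned the same way. On chromosome 8, 127 probes were above background on OM2i-iPSC and not on ES, and 103 on ES and not on OM2i-iPSC, a ratio of 1.23. The ratio was 0.849 on the other autosomes, from 1974 and 2326 probes. For PM2i-iPSC against ES the ratio was 0.472 on chromosome 8, from 75 and 159 probes, and 0.536 elsewhere. These probes are outside the members, or in part so for PM2i-iPSC, but they come from the same arrays. Just inside the rule were the probes named LOC209786, AK019816 and Nkd1, with processed signals of 100.3, 111 and 111 on ES. Just outside it were the melanoma antigen Mela, with 31875 on ES and 125 on OM2i-iPSC, the endosomal sorting protein Tom1, with 120 and 2682, and Armc6, with 65.1 and 4371.

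The fibroblast array gives a view without a pluripotent baseline. It used 1101 probes of chromosome 8 and 20057 of the other autosomes that were above background on all 4 arrays. Chromosome 8 was 0.18 lower than the other autosomes on ES minus MEF (a distance of -0.18, the lowest of the 19), and it was at -0.18 on PM2i-iPSC minus MEF, the second lowest. On OM2i-iPSC minus MEF it was at 0.07, rank 3 from the highest. Of the 13 windows, 8 lay above the other autosomes there, beside 5 on ES minus MEF and 4 on PM2i-iPSC minus MEF. The first window stood at 0.44 on ES, 0.85 on PM2i-iPSC and 1.25 on OM2i-iPSC, each minus MEF. The SD of the other chromosomes' medians was 0.086, 0.099 and 0.097 in these comparisons, wider than the 0.040 of OM2i-iPSC minus ES on these probes. The array levels themselves placed chromosome 8 at 0.03 above the other autosomes on ES, -0.01 on PM2i-iPSC, 0.28 on OM2i-iPSC and 0.07 on MEF. By these levels the OM2i-iPSC array stands apart from the other 3, which lie between -0.01 and 0.07. The differences from MEF give another order, with ES and PM2i-iPSC farther from the other autosomes than OM2i-iPSC. Which array is the unusual one was not tested.

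Base composition and brightness moved with the difference between OM2i-iPSC and ES on all autosomes. The median of the other autosomes was -0.22, -0.04 and 0.26 in 3 classes of rising probe GC content, divided at 38.3% and 45%. Probes of chromosome 8 had a median GC content of 45%, beside 43.3% elsewhere. Within those 3 classes chromosome 8 stood 0.22, 0.25 and 0.13 above the other autosomes. With every probe set against other-autosome probes of the same GC content, a comparison chosen after the data were seen, the shift was 0.19 and chromosome 8 was still the highest of 19. The windows then ran from -0.06 in the fifth to 0.54 in the first, and 12 of 13 were above 0. For OM2i-iPSC minus PM2i-iPSC the GC classes gave 0.29, 0.22 and 0.05, so that shift was small among probes of high GC content.

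In 3 classes of brightness the shift on OM2i-iPSC minus ES was 0.15, 0.25 and 0.18, from dim to bright. In 3 bands of rows on the array it was 0.21, 0.24 and 0.25. It was 0.19 for genes on the plus strand and 0.26 on the minus strand. All of these classes were above 0. The next chromosome was at 0.06 in the whole set, but the other chromosomes were not read singly within the classes. On PM2i-iPSC minus ES the same classes ran from -0.12 to 0.03, on either side of 0.

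**Figure D4:**
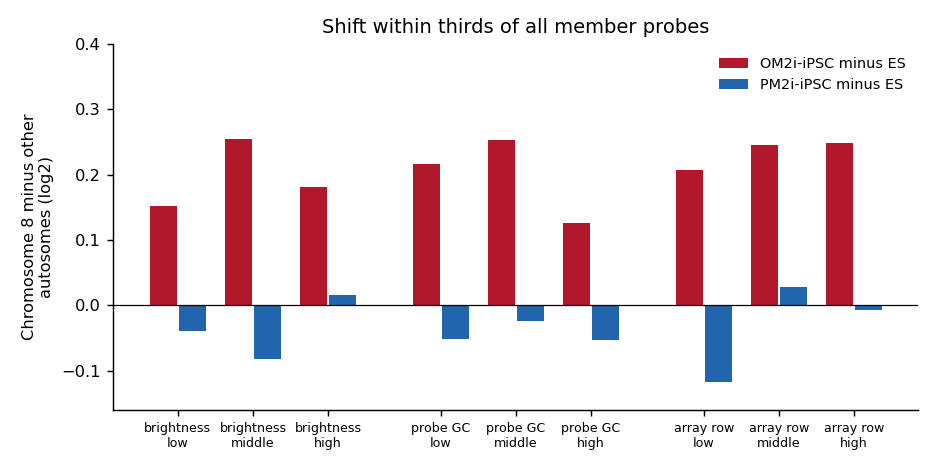
Distance of the chromosome 8 median from that of the other autosomes (y axis, log2) within 3 classes each of brightness, probe GC content and row on the array (x axis). Bars start at 0 and show OM2i-iPSC minus ES, from 0.13 to 0.25, and PM2i-iPSC minus ES, from -0.12 to 0.03, with 1 array per group and no error bar.

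The genes of chromosome 8 were then read by function, with the brightest probe standing for a gene. Over all 900 chromosome 8 genes, 176 were at least 2-fold higher on OM2i-iPSC than on ES, beside 17.4% of all autosomal genes, and 68 were lower, beside 12.8%. There were 541 above the median of the other autosomes (60.1%), beside 51.9% of all. The median was 0.16, where the genes of the other autosomes had -0.01. On PM2i-iPSC the counts were 85 higher, beside 9.94%, and 124 lower, beside 12.9%. There 446 were above that median (49.6%), beside 50%, and the median was -0.10. Between OM2i-iPSC and PM2i-iPSC, 196 genes were higher, beside 17.8%, 53 were lower, beside 9.72%, and 543 (60.3%) were above, beside 51.8%. The lists below were drawn up by role with earlier results of these data known.

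Genes of the early embryo and of pluripotent cells include Zfp42, a zinc finger protein known as Rex1 that marks naive pluripotent cells. It read 3.34 on ES, 2.92 on PM2i-iPSC and 2.34 on OM2i-iPSC, and this probe was not well above background on MEF, while its other probe was, at -4.25. Zfp42 was therefore lowest on the array where the chromosome stood highest, with a difference of -1.003 from ES, and its other probe had -0.91. On PM2i-iPSC the difference was -0.42 for each of its probes. Klf2, a Krüppel-like factor of the naive state, was saturated on its brightest probe, and its dimmer probe had -0.80 on OM2i-iPSC and -0.37 on PM2i-iPSC. Of the other naive-state or chromatin genes, the insulator protein Ctcf read 3.09, 3.13 and 3.24 on ES, PM2i-iPSC and OM2i-iPSC, a difference of 0.15 that is within the spread of spots. The remodelling ATPase Smarca5 read 3.01, 3.54 and 3.62 in the same order, so both iPSC arrays were above ES, although 2 of its 3 other probes had the opposite sign in both. Of the 10 genes of this list on chromosome 8, all of them members, 7 were above the median of the other autosomes on OM2i-iPSC and 6 on PM2i-iPSC, with medians of 0.28 and -0.01. On OM2i-iPSC 1 was at least 2-fold higher and 1 lower, and on PM2i-iPSC 3 were higher and none lower.

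Genes of DNA replication, repair and the cell cycle ranged from -0.96 to 2.43 on OM2i-iPSC minus ES. Mcm5, a subunit of the replicative helicase, read 3.29 on ES, 2.89 on PM2i-iPSC and 3.25 on OM2i-iPSC. The licensing factor Cdt1 read 3.06, 2.87 and 3.03 in that order, and the histone chaperone Asf1b read 3.07, 2.96 and 2.90. Their differences between OM2i-iPSC and ES were within the spread of spots, as was the 0.21 of Chmp1a, which belongs to this list too. Of 28 members among 29 genes, 13 were above the median of the other autosomes on OM2i-iPSC, with 3 at least 2-fold higher and none lower, and the median was -0.08. On PM2i-iPSC 14 were above it, with 1 higher and 1 lower, and the median was -0.09. The median of the list on OM2i-iPSC was close to the -0.04 over all probes of the other autosomes. Among the brightest of 3 classes of those probes the median was -0.18, and the list was not compared at like brightness.

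Ligands, receptors and signalling proteins had medians of opposite sign on the iPSC arrays, with most members under 2-fold on each. Of 16 members among 22 genes, 13 were above the median of the other autosomes on OM2i-iPSC and 5 on PM2i-iPSC, with medians of 0.40 and -0.73. At least 2-fold higher or lower were 4 and 2 genes on OM2i-iPSC, and 2 and 5 on PM2i-iPSC. Gab1, an adaptor of receptor tyrosine kinases, read 1.64 on ES, 1.29 on PM2i-iPSC and 2.58 on OM2i-iPSC. Gdf1, a ligand of the TGF-beta family, read 1.73, 0.38 and 1.98 in the same order. Both were above ES on OM2i-iPSC and below it on PM2i-iPSC. Vegfc, a growth factor of lymphatic vessels, read 1.63, 1.94 and 2.07, above ES on both. The secreted Wnt antagonist Sfrp1 ran against the chromosome, at 1.97, 1.08 and -0.06. The fibroblast growth factor receptor Fgfr1 read -2.07 on ES, -0.44 on PM2i-iPSC and -0.45 on OM2i-iPSC, about 3.1-fold above ES on each. A second probe of Fgfr1 had 1.64 and 1.23, while another had -1.44 on OM2i-iPSC and 3.50 on PM2i-iPSC, so its probes disagree.

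Adhesion and matrix genes were at a median of 0.17 on OM2i-iPSC and -0.37 on PM2i-iPSC. Of 15 members among 19 genes, 9 and 6 were above the median of the other autosomes, with 1 at least 2-fold higher and none lower on OM2i-iPSC and none higher and 3 lower on PM2i-iPSC. Cdh1, the E-cadherin of epithelial and pluripotent cells, read 1.75 on ES, 1.29 on PM2i-iPSC and 1.99 on OM2i-iPSC, and it was not well above background on MEF. Palld, an actin-associated scaffold, read 3.21, 1.81 and 3.38. Each was nearer to ES on OM2i-iPSC than on PM2i-iPSC. The mesenchymal cadherin Cdh11 had 0.44 and 0.43 on its brightest probe, but its other 2 probes had -1.77 and -1.08 on OM2i-iPSC and -2.13 and -2.92 on PM2i-iPSC.

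Transcription factors of the chromosome were spread widely. Of 19 members among 26 genes, 11 were above the median of the other autosomes on OM2i-iPSC, with 6 at least 2-fold higher and 2 lower, and the median was 0.15. On PM2i-iPSC these counts were 10, 5 and 2, with a median of -0.07. Its brightest members, the AP-1 proteins Junb and Jund and the factor Klf2, were saturated on at least 1 array, so no fold is given for them. The list's range on OM2i-iPSC ran from -1.62 to 2.60.

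Housekeeping genes of mitochondria, translation and protein turnover had the lowest median of the 9 lists on OM2i-iPSC. All 26 genes were members, and 9 were above the median of the other autosomes on OM2i-iPSC and 11 on PM2i-iPSC, with medians of -0.15 and -0.26. The counts at 2-fold were 2 higher and 1 lower on OM2i-iPSC, and 1 higher and 2 lower on PM2i-iPSC. Slc25a4, the ADP/ATP carrier of the inner mitochondrial membrane, read 3.57 on ES, 3.25 on PM2i-iPSC and 3.39 on OM2i-iPSC. The outer-membrane channel Vdac3 read 4.06, 3.71 and 3.97, and the proteasome lid subunit Psmd7 read 3.50, 3.41 and 3.44. All 3 were highest on ES. Their other probes ranged widely, with 0.998 for Slc25a4 and -1.499 for one of Psmd7 on OM2i-iPSC. The chaperone Calr of this list was saturated on at least 1 array, where a difference is compressed. Over all members, 49 probes were saturated on at least 1 of the 3 arrays, and without them the shift of chromosome 8 on OM2i-iPSC was 0.25.

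The tandem families were read apart from the rest, since their copies can share probe signal. Of the metallothioneins, small metal-binding proteins, 3 of 4 were members. Mt1 read 3.25 on ES, 3.44 on PM2i-iPSC and 3.64 on OM2i-iPSC, and Mt3 read 1.69, 1.76 and 1.95. Both were in the same order, ES lowest and OM2i-iPSC highest, and Mt2 was saturated. The second probe of Mt1 had 2.92 on OM2i-iPSC and 0.90 on PM2i-iPSC. In the list 2 of 3 were above the median of the other autosomes on each iPSC array, none past 2-fold, with medians of 0.26 and 0.08.

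Of 15 carboxylesterases, enzymes that hydrolyse esters, 5 were members. On OM2i-iPSC 4 of them were above the median of the other autosomes, with none at least 2-fold higher and 1 lower, and on PM2i-iPSC 2 were above, with none higher and 3 lower. Medians were 0.57 and -1.46. Ces2a read -1.97 on ES, -1.95 on PM2i-iPSC and -1.36 on OM2i-iPSC, while Ces2b was highest on ES at -0.67, beside -2.13 and -1.84. Ces2e was not well above background on PM2i-iPSC. Of 26 defensins, antimicrobial peptides, 11 were members, and 9 were above the median of the other autosomes on OM2i-iPSC and 7 on PM2i-iPSC, with medians of 0.12 and 0.13. At least 2-fold higher were 3 on each, and 1 was lower on OM2i-iPSC. Defb15 read -0.77 on ES, 0.09 on PM2i-iPSC and 1.87 on OM2i-iPSC, while Defb11 read -2.25, -1.92 and -2.19. Cross-reading between copies was not tested.

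Among genes well above background and unsaturated on all 3 pluripotent arrays, with clone and predicted names left out, the widest differences lay on both sides. On OM2i-iPSC the highest of them was Tmem59l, a transmembrane protein, at -4.20 on ES, -2.53 on PM2i-iPSC and 0.05 on OM2i-iPSC. Sprtn, a protease that removes proteins linked to DNA, read -3.01, -1.37 and 0.32, and Tsnaxip1 read -4.43, -2.49 and -0.94. In these 3 genes PM2i-iPSC stood between ES and OM2i-iPSC. Cmtm1, of the chemokine-like MARVEL family, was at -2.24, -2.29 and 0.88, so OM2i-iPSC was the highest of the 3, and MEF read 0.38. Differences of OM2i-iPSC from ES were 4.25 (19.1-fold) for Tmem59l, 3.49 for Tsnaxip1, 3.33 for Sprtn and 3.12 for Cmtm1. The lowest was Ank1, an ankyrin that ties membranes to the spectrin skeleton, at -0.82 on ES, -1.70 on PM2i-iPSC and -4.47 on OM2i-iPSC. Plekha2, a phosphoinositide-binding protein, had -3.01 on this probe, but its other 2 probes had -0.36 and -0.07. Adam32 and Tdrp, genes known from the testis, had -2.57 and -2.56.

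On PM2i-iPSC the 4 highest under the same limits were Adad2 at 2.79 above ES, Heatr3 at 2.77, Hsdl1 at 2.62 and Ushbp1 at 2.46. Each of these 4 was above ES on OM2i-iPSC too, by 2.46, 1.87, 1.90 and 0.93. The lowest under these limits were Cpe at -2.68, Inpp4b at -2.43, Vac14 at -2.27 and Edc4 at -2.16. Cpe, the carboxypeptidase that trims prohormones, read 0.39 on ES, -2.29 on PM2i-iPSC and 2.27 on OM2i-iPSC, and Vac14, a scaffold of the phosphoinositide kinase PIKfyve, read -0.41, -2.68 and 1.12. Both were thus opposite in sign between the iPSC arrays. A second probe of Cpe had -0.38 and -0.39, and one of Vac14 had 0.58 and -0.66. The lipid phosphatase Inpp4b was level with ES on OM2i-iPSC, at -0.04, and the decapping scaffold Edc4 was at -0.76.

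The brightest unsaturated gene of each window was taken along the chromosome without regard to its difference. Of these 13 genes, 8 were above the median of the other autosomes on OM2i-iPSC and 9 on PM2i-iPSC, each against ES, and 10 were above it on OM2i-iPSC minus PM2i-iPSC, beside 11 of the 13 window medians. Gas6, a ligand of the TAM receptor kinases in the second window, read 2.93 on ES, 3.56 on PM2i-iPSC and 3.94 on OM2i-iPSC. The latrophilin Adgrl1 in the ninth read 3.43, 3.99 and 4.01, and Nr2c2ap in the seventh read 3.15, 3.39 and 3.99. ES was the lowest of the 3 arrays in each. The chromatin protein Hmgb2 in the sixth went the other way, at 4.05, 3.07 and 3.52. Trappc5, a vesicle-tethering subunit in the first window, was highest on PM2i-iPSC, at 3.27, 3.62 and 2.97. Gtf2e2 of the general transcription machinery in the fourth read 3.54, 3.65 and 3.91. The ubiquitin ligase Znrf1 in the twelfth read 3.57, 3.35 and 3.71, and the membrane-remodelling protein Chmp1a in the last read 3.70, 3.82 and 3.91. OM2i-iPSC was the highest in Gtf2e2, Znrf1 and Chmp1a on these probes. The other probe of Chmp1a had 0.25 on OM2i-iPSC and 0.37 on PM2i-iPSC.

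**Figure D5:**
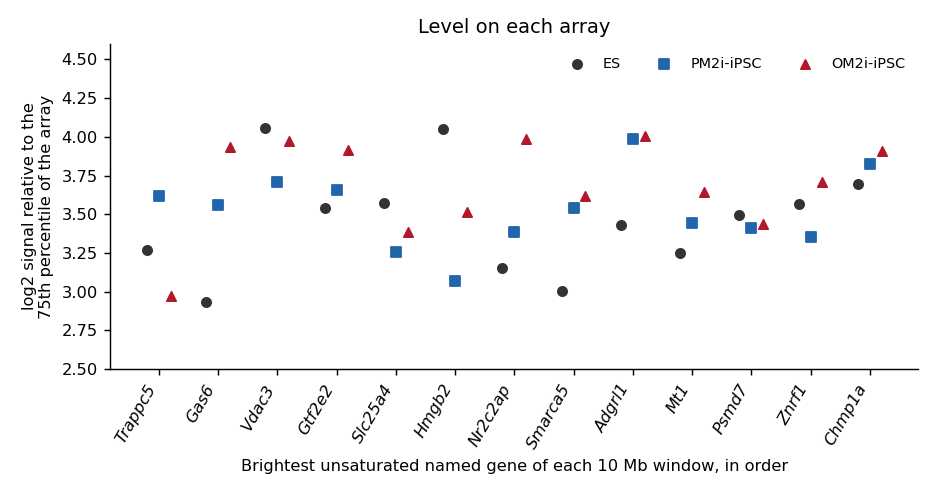
Level of the brightest unsaturated named gene of each 10 Mb window of chromosome 8 (x axis, in coordinate order) on the ES (circle), PM2i-iPSC (square) and OM2i-iPSC (triangle) arrays, as log2 signal relative to the 75th percentile of the array (y axis, which does not start at 0). Symbols are comparable within a gene only. OM2i-iPSC lies above ES in Gas6 and Nr2c2ap and below it in Hmgb2 and Trappc5. Only the brightest probe of a gene is drawn, and the other probe of Hmgb2 had 1.11 on OM2i-iPSC minus ES.

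The 6 brightest genes of the highest, the next highest and the lowest window were added after the window medians were seen. In the first window 2 of 6 were above the median of the other autosomes on OM2i-iPSC. These were the chemokine Ccl25 at 0.92 and the ceramide synthase Cers4 at 0.61, where other probes of Cers4 had -0.77 and 1.36. The peroxisomal gene Pex11g was at -1.20 on its brightest probe, with -1.13, 2.41 and 0.96 on its others. Arhgef18 was at -0.72 and Evi5l at -0.58, where other probes of Evi5l had 1.09 and -0.26. The probes of Cers4, Pex11g and Evi5l thus disagree in sign. On OM2i-iPSC minus PM2i-iPSC these 6 genes had a median of 0.72. In the eleventh window 5 of 6 were above it, with the ribosome assembly factor Nip7 at 0.75, the cap methyltransferase Cmtr2 at 0.75, the RNA helicase Ddx19b at 0.41 and the centromere protein Cenpt at 0.39. On PM2i-iPSC 5 of those 6 were above the median of the other autosomes too, at 0.31 for Nip7, 0.17 for Cmtr2 and 0.30 for Ddx19b. Cenpt was on the lower side, at -0.48. The other probes of Nip7, Cmtr2 and Ddx19b had 0.52, 0.10 and 1.45 on OM2i-iPSC and -0.005, -0.61 and -0.89 on PM2i-iPSC. In the fifth window 2 of 6 were above that median on OM2i-iPSC, the teneurin Tenm3 at 0.39 and Wwc2 at 0.13. The primase-polymerase Primpol was lowest there at -1.40, next to Zfp42 at -1.003, and Rwdd4a was at -0.19.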

How the data were processed

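RNA of 4 Agilent samples, 1 array each, was analysed, and the 4 Affymetrix samples were not used here. Agilent Feature Extraction (10.7.3.1, and 9.5.3.1 for MEF, per the file headers) gave a processed intensity per spot, which the authors deposited. The authors' deposited table of processed intensity differed from it by at most 0.498% and was used as an alternative. After removal of control and outlier spots, replicate spots were averaged per probe, and the 75th percentile of each array was subtracted on the log2 scale. It was 3160.1 (ES), 3531 (PM2i-iPSC), 3461 (OM2i-iPSC) and 1877 (MEF). The number of arrays limits the precision.

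Probe coordinates were read from the scanner output of MEF, in build mm7, while the headers of the other 3 arrays name mm8. Of the members, a RefSeq table of assembly GRCm38.p6 named 829 through the accession, 173 through the symbol and 98 through a former symbol, and 163 kept the file's name. That table put 1097 on chromosome 8 and 3 elsewhere. The brightest probe stood for its gene.

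Named genes were the brightest unsaturated gene of each window, the 4 highest and 4 lowest of each comparison with ES among genes well above background and unsaturated on all 3 pluripotent arrays, up to 4 of each of 9 lists, and Zfp42, Klf2, Cdh1 and Fgfr1. Clone and predicted names were left out. The members and lists were chosen with earlier results of these data known. Epithelial, endoderm, trophoblast, blood and endothelial markers were also read, and summed signals are given in the closing observations. The window and median calculations were tested on simulated data. Alternatives covered scaling, background correction (limma 3.58.1 in R 4.3.3, normexp with offset 50), probe filters, source table, unit and windows. Python 3.11.15, numpy 2.4.6 and pandas 2.3.3 were used.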

Additional observations from a re-analysis of the deposited data

Results flagged for a closer look

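The shift of chromosome 8 against the other autosomes differed between the iPSC preparations. It was 0.22 on OM2i-iPSC minus ES and -0.03 on PM2i-iPSC minus ES, opposite in sign. The PM2i-iPSC value was smaller in size than the SD of the other chromosomes' medians, 0.036. There was 1 array of each and both were set against the same ES array, so the difference was not tested. OM2i-iPSC was on a slide of its own among these 3 arrays.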

How the results depend on the processing

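No paired analysis was possible because each group had 1 array, and for the same reason no replicate could be left out. Under 11 of 12 alternatives the shift of chromosome 8 on OM2i-iPSC minus ES was within 0.041 of its value. This 0.041 is the SD of the other chromosomes. On PM2i-iPSC the shift was that close under all 12 (-0.05 to -0.01). Neither shift changed sign. Scaling by the array median could not move either shift, since it moves all probes of an array alike. The authors' deposited table, within 0.498% of the intensities used, could hardly move them. Those settings are counted among the 12 but do not probe how firm the shifts are. With no detection filter the OM2i-iPSC shift was 0.066, the share at least 2-fold higher 23.8% and the SD of window medians 0.065. That setting adds probes not above background, and 12 of 13 windows stayed above the median of the other autosomes. The share on OM2i-iPSC was 17.7% with scaling by the array median, where all probes shift alike, and 13.2% in members brighter than their median. On PM2i-iPSC it was 9.53% per gene, 14.5% with no filter and 5.67% in the brighter members. The SD of window medians on OM2i-iPSC was 0.131 in the brighter members and 0.088 with windows of 20 Mb. On PM2i-iPSC it was 0.107 when detection there was required too, 0.115 with no filter, 0.131 with windows of 5 Mb and 0.118 with windows starting at 5 Mb. With windows of 20 Mb, 7 of 7 were above on OM2i-iPSC and 2 of 7 on PM2i-iPSC. On PM2i-iPSC 8 of 19 were above with windows of 5 Mb and 7 of 13 in the brighter members. Causes of these moves were not tested. Of the 12, 3 settings were chosen after the data were seen. With probes whose gene the RefSeq table puts on the same chromosome the OM2i-iPSC shift was 0.24 and 13 of 13 windows were above, without the first window it was 0.21, and at the same probe GC it was 0.19. Signals near background and saturation limit single probes.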

Other observations

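Markers of other cell types were read on the same arrays. The summed processed signal of 3 epithelial markers was 44491 on ES, 17818 on PM2i-iPSC and 26945 on OM2i-iPSC, that of 3 endoderm markers 72141, 79464 and 65510, and that of 3 trophoblast markers 17909, 17002 and 22584. Krt7 made up most of the last sum, with 17355, 16584 and 17772, while Cdx2 had 381, 372 and 4605. Of the epithelial markers, Krt8 had 27543, 5078 and 6440, Cdh1 10628, 8606 and 13778, and Epcam 6320, 4135 and 6728. Only Krt8 was thus lower on OM2i-iPSC than on ES. Gata6 made up most of the endoderm sum, with 63072, 69456 and 58891, and it read 42491 on MEF. Gata4 had 8875, 9756 and 6213, and Sox17 had 194, 253 and 407. All 9 markers were above background on ES and OM2i-iPSC, and 8 of 9 on PM2i-iPSC. The blood marker Ptprc was above background on ES alone, and 1 of 2 endothelial markers on each of the 3 arrays. The part of these cells in the shift of chromosome 8 was not tested.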
